A study of Mus musculus with 4 samples.

Results

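The genes described here are Cryz, Cryzl1, Crym, Cryl1 and Lgsn, which are named as crystallins or lens enzymes but lie outside the alpha and the beta-gamma crystallin families. They were chosen by symbol, by a rule that used no values, but with earlier results of these data known. All 5 were found among the 18702 genes listed in each table. RNA was sequenced from eye tissue of C57BL/6 mouse embryos in 4 libraries, 2 from wild-type embryos (Anp32b+/+) and 2 from embryos labelled knockout (Anp32b−/−), with no treatment named. Anp32b encodes an acidic nuclear phosphoprotein that binds histones, and the comparison addressed how its loss bears on Pax6 and eye development. Stage, sex, pooling of embryos and the deleted part of Anp32b are unknown from the sources used here. Since no label states that the 2 libraries of a genotype are from different embryos, p-values measure only the spread between libraries, which may be technical.

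Lens crystallins fall into the structural families, which all vertebrates use, and enzyme crystallins, which are metabolic enzymes that single animal groups express at very high levels in the lens. Cryz (zeta-crystallin, an NADPH-dependent quinone reductase) has that role in the guinea pig, Crym (mu-crystallin) in some marsupials and Cryl1 (lambda-crystallin) in the rabbit. In the mouse none of these is a bulk lens protein, and each is known for an enzymatic or binding function in other tissues. Cryzl1 is a relative of Cryz by sequence. Lgsn encodes lengsin, a protein of lens fibre cells that belongs to the glutamine synthetase family.

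RefSeq promoter windows (GRCm38.p6, 250 bases before to 50 after a start site) were available for 4 of the 5 genes, with 2 windows for Cryz. For Lgsn and Cryzl1 this start site lies inside the gene as RefSeq gives it, and not at its outer end. The windows of Lgsn, which fell, of Cryl1, which rose, and of Cryzl1, which did not pass the test, are shown because these genes differed in response. Capitals mark matches, on either strand, to the TATA box TATAAA, the CCAAT box CCAAT, the GC box GGGCGG, the Maf half-site TGCTGA, the antioxidant response element core TGACNNNGC, the heat shock element pair TTCNNGAA and the homeodomain site TAATTA, and in these windows no matches overlapped.
Lgsn promoter, chr1:31176185-31176484, plus strand: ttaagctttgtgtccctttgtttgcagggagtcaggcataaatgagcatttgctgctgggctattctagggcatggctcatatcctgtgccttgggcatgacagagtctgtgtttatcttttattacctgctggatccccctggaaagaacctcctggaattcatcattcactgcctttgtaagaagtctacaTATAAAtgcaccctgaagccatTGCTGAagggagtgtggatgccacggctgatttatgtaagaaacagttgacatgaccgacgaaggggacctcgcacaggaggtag
Cryl1 promoter, chr14:57398434-57398733, minus strand: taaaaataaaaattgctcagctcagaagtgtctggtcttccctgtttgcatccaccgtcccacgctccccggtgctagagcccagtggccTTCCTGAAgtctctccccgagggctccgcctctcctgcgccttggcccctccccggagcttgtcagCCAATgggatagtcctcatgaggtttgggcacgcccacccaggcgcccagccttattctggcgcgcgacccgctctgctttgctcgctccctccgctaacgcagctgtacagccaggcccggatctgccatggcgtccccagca
Cryzl1 promoter, chr16:91728753-91729052, minus strand: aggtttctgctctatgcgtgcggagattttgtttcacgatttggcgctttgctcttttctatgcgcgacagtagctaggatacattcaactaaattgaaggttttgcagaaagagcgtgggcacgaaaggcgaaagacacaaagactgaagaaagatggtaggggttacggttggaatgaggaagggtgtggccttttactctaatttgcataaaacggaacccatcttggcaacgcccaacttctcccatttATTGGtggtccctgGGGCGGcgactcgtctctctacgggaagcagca

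The Lgsn window held 4 CpG dinucleotides and 47.3% G and C, against medians of 7 and 52.7% over 32851 promoter windows. It held TATAAA 57 bases before the start site of this window and TGCTGA 35 bases before that site. Of all windows 13.6% and 19.5% contained these at least once. The windows of the other genes were richer in CpG, with 16 in Cryzl1, 18 in Cryl1, and 16 and 25 in the windows of Cryz, and each held CCAAT or its complement, as did 37.4% of all windows. Cryl1 also held TTCNNGAA, which occurred in 8.52% of windows, and Cryzl1 held GGGCGG, found in 35.7%. A match of letters is a description of the window and not evidence of binding.

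Low values placed the depth of the libraries between about 17600000 and 18200000 fragments. Anp32b, the targeted gene, gave 163.18 and 179.12 FPKM (fragments per kilobase of transcript, relative to the fragments of the library) for wild-type replicates 1 and 2, and 94.53 and 92.67 FPKM for knockout replicates 1 and 2. Its mean in the libraries labelled knockout was thus 54.7% of that in the wild type, and in each of them it was above 96.7% or 96.6% of listed genes. This level goes against the label if knockout is read as absence of the transcript, and with the deleted part unknown it does not check the label otherwise. Knockout means here the libraries so labelled, and every direction given rests on that label. With limma on log2(FPKM + 1) and a Benjamini-Hochberg adjusted p under 0.05, 54.6% of 13887 genes passed the test, 33.5% of them higher and 21.1% lower in the knockout as shares of all genes tested. Of the changed genes 61.3% were higher, but 80.7% with the deposited TPM values, and 44.9% when the library total was taken over genes other than crystallin and erythroid ones. The genotypes did not overlap in 77.9% of the genes tested, with the knockout above in 45.6% and below in 32.4%. As shares of all genes tested, 47.8% were higher and 11.4% lower with TPM, 25.4% and 31.2% with that library total, and 28.3% and 26.5% with median-of-ratios scaling. With 1 library left out, 24.3% to 28.4% were higher and 14.7% to 16.5% lower. Against this background 4 of the 5 genes passed the test, Lgsn, Crym and Cryz lower and Cryl1 higher, and Cryzl1 did not.

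The 5 genes kept the same order of level in all 4 libraries, from Crym through Cryzl1, Cryz and Cryl1 to Lgsn. FPKM is corrected for length, so levels can be compared between genes. Crym was above 96.0% and 95.9% of all listed genes in the wild-type libraries and above 89.6% and 89.4% in the knockout libraries. Lgsn was above 33.2% and 34.1% of genes in the wild type and above 18.8% and 13.4% in the knockout. In each genotype the lower value of a gene lay above the higher value of the next gene in this order. As a ratio the closest neighbours were Cryzl1 and Cryz, at 21.15 and 16.48 FPKM in wild-type replicate 1, and in FPKM they were Cryl1 and Lgsn, at 4.66 and 2.24 FPKM in wild-type replicate 2. The 16 structural crystallins that were lower in the knockout had wild-type means from 122.7 to 13324 FPKM, so in the wild type each of them was above every gene of this set.

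**Figure D1:**
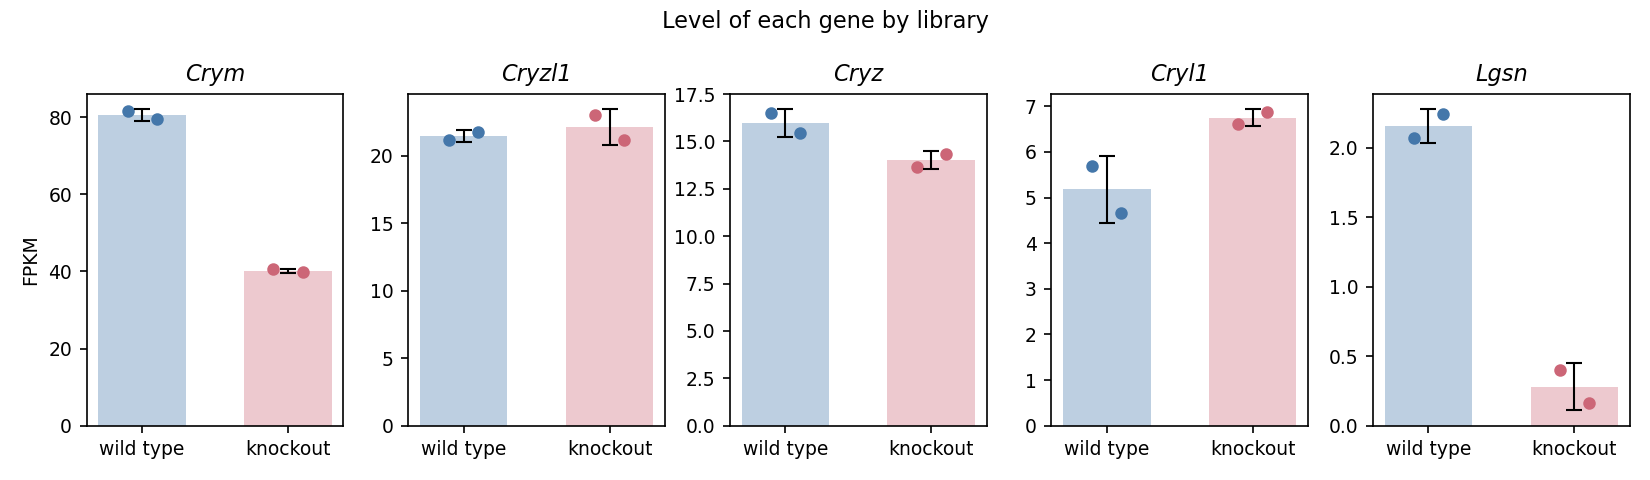
FPKM of Crym, Cryzl1, Cryz, Cryl1 and Lgsn in wild-type and knockout libraries. Points are the 2 libraries of a group, bars their mean and error bars the SD, and each panel has its own axis from 0. Crym and Lgsn are far lower in both knockout libraries, Lgsn at 0.40 and 0.16 FPKM against 2.07 and 2.24 FPKM.

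Lgsn (Entrez 266744, a protein-coding gene on the plus strand of GRCm38 chromosome 1 from 31176401 to 31204725) had the largest fall of the set. Wild-type replicates 1 and 2 gave 2.07 and 2.24 FPKM, and knockout replicates 1 and 2 gave 0.40 and 0.16 FPKM. The groups did not overlap, and the higher knockout value was far under the lower wild-type value. Its mean in the knockout came to 13.0% of that in the wild type, a fall of 7.70-fold, from 2.16 ± 0.12 to 0.28 ± 0.17 FPKM (SD, n = 2). On the scale of log2(FPKM + 1), where a low gene's change is compressed, limma gave −1.31 (SE 0.12, adjusted p = 0.000143), and with a pseudocount of 0.1 it was −2.64 (SE 0.33). At the estimated depth, and for its longest coding transcript of 1937 bases, these values correspond to about 73 and 76.4 fragments in the wild type and to about 14.1 and 5.6 in the knockout. Lgsn entered the test through its wild-type values, since both knockout values are under the minimum mean of 1 FPKM and at that level alone it would not have been tested. Of the 13887 genes, 74 had a more negative log2 fold change.

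The structural crystallins gave values of the same order. Of 17 genes on the structural list 16 were lower in the knockout, between 5.49-fold and 16.3-fold, with Lgsn at 7.70-fold lying inside that range. On the log2(FPKM + 1) scale their falls ran from −2.45 to −4.01. The difference between Lgsn and these genes was not tested. Lens fibre and epithelium markers, 13 of 13 lower, summed to between 2062 and 2111 FPKM in the wild type. In the knockout they summed to between 207.1 and 207.6 FPKM, and none of them was listed at 0 in every library. Beside the counts for these lists, 21.1% of all genes tested were lower. In a bulk sample fewer lens cells and less RNA per lens cell cannot be told apart. Exons of 4931428L18Rik, on the opposite strand, cover 14.5% of the exon bases of Lgsn, and no source used here says if counting was by strand.

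Glutamine synthetase, the enzyme family to which lengsin belongs, is represented in the mouse by Glul, which makes glutamine from glutamate in glia. Its wild-type values were 196.76 and 210.08 FPKM and its knockout values 169.67 and 173.75 FPKM, without overlap. For Glul limma gave −0.24 on the log2 scale (SE 0.04, adjusted p = 0.00160), beside −1.31 for Lgsn. On the list of glutamine synthetase and glutamate turnover genes, 4 of 5 tested members were lower and 1 was higher. Of all genes tested 21.1% were lower and 33.5% higher. The median of the list was −0.24 against 0.04 for all genes. With TPM 3 of 6 were lower, where 11.4% of all genes were. The glial glutamate transporter gene Slc1a3 (−0.59) and the glutamine transporter gene Slc38a3 (−0.45) had the lowest p-values. Genes listed as Müller glia markers, which include Glul and Slc1a3, summed to between 789.2 and 800.1 FPKM in the wild type. In the knockout they summed to between 652.5 and 657.2 FPKM. Of 5 tested markers on that list 4 were lower and 1 was higher, beside 21.1% and 33.5% of all genes tested. Aqp4, on the same list, was at 0.41 FPKM or less in every library and was not tested. Most of the fall of the sum came from Dkk3, with means of 333.9 and 202.6 FPKM, together with Glul and Slc1a3 themselves, while Apoe, a lipid carrier gene, rose from 180.2 to 222.2 FPKM (0.30, limma adjusted p = 0.000171). Aqp4, Dkk3 and Apoe were named after their values were seen. Whether these embryonic eyes held Müller glia was not tested, nor was any part of such cells in the falls.

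Crym (Entrez 12971, protein coding, minus strand of chromosome 7 from 120186380 to 120202111) encodes a cytosolic protein that binds thyroid hormone with NADPH and reduces cyclic ketimines. It was the most abundant gene of the set and its mean in the knockout came to 49.9% of that in the wild type. Crym was measured at 81.60 and 79.54 FPKM in wild-type replicates 1 and 2, and at 40.55 and 39.78 FPKM in knockout replicates 1 and 2. Replicates lay close together in each group, and the groups were well apart. The means were 80.6 ± 1.46 and 40.2 ± 0.54 FPKM (SD, n = 2), a 2.01-fold fall, with a log2 fold change of −0.99 (SE 0.03, limma adjusted p = 1.6e-06). Of all genes tested, 119 had a more negative log2 fold change. No 50-base stretch of its transcripts occurred in transcripts of another gene, and its exons overlapped those of no other annotated gene.

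Retinal markers differed by cell type in the same libraries, where 33.5% of all genes tested were higher and 21.1% lower. Ganglion cell markers, 10 of 10 lower, summed to between 506.3 and 513.8 FPKM in the wild type and to between 349.4 and 354.4 FPKM in the knockout. Progenitor markers, 8 of 10 lower, went from between 1363 and 1377 FPKM to between 875.4 and 882.2 FPKM. Photoreceptor markers, 4 of 9 higher and 4 lower, summed to between 306.5 and 307.7 FPKM in the wild type and to between 324.0 and 324.7 FPKM in the knockout. Among them Opn1sw (0.77), a cone opsin gene, was higher and Sag (−1.11), the rod arrestin gene, lower, both named after their values were seen. Skeletal muscle markers, 12 of 12 higher, rose from between 1478 and 1561 FPKM to between 3066 and 3107 FPKM. None of the markers on these 4 lists was at 0 in every library. Their part in the fall of Crym was not tested.

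By the summed absolute difference of log2(FPKM + 1) from the wild-type mean over the 4 libraries, the genes most like Crym among 1561 of similar wild-type level were Nefl, Sncg and Fabp7. Nefl, a neurofilament gene, differed from Crym by 0.09 in all, Sncg, which encodes gamma-synuclein, by 0.23, and Fabp7, a fatty acid binding protein gene of neural progenitors and glia, by 0.28. Nefl went from 55.01 and 54.28 FPKM to 25.99 and 26.82 FPKM. For Lgsn the nearest of 2693 genes were C1ql2 (0.44), C1ql4 (0.48) and Pde6b (0.52), the last a rod phosphodiesterase gene. These were further from Lgsn than the nearest genes were from Crym, and knockout replicate 2, where Lgsn was lowest, contributed most. Libraries of a group are not labelled as independent, so a likeness over 4 libraries is a description.

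**Figure D2:**
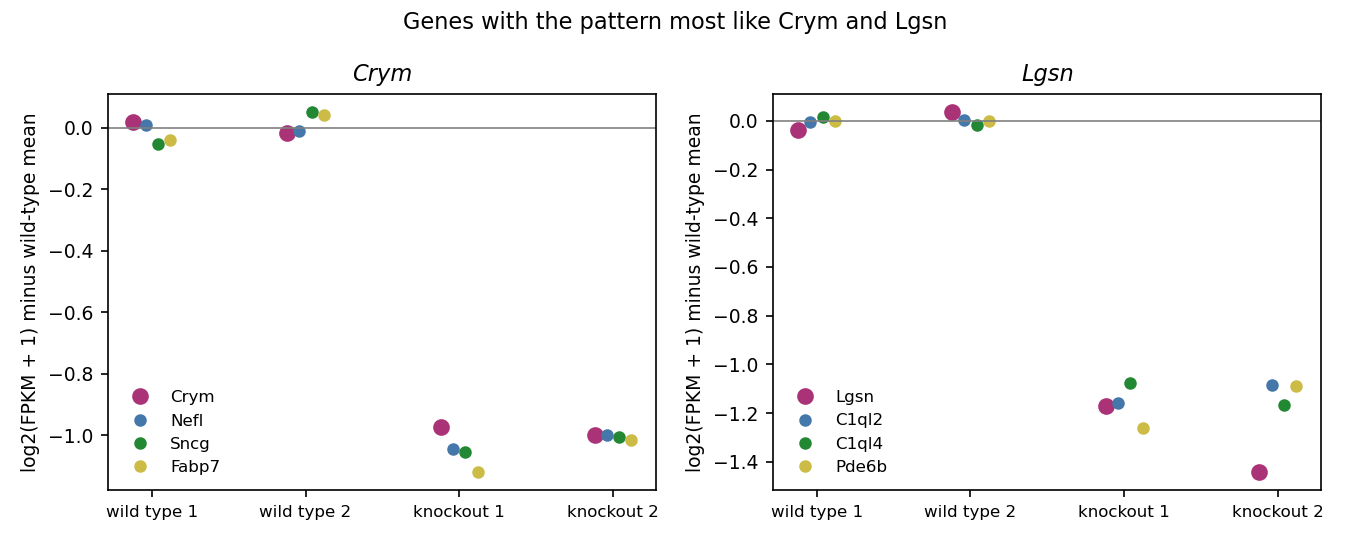
Change of Crym (left) and Lgsn (right), with the 3 genes nearest to each in pattern, as log2(FPKM + 1) minus the mean of the wild-type libraries, for each of the 4 libraries. Nefl lies within 0.09 of Crym summed over the libraries, while Lgsn lies below C1ql2, C1ql4 and Pde6b in knockout replicate 2.

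Genes that handle thyroid hormone had a median log2 fold change of 0.05, against 0.04 for all genes. Of 15 listed genes 11 were tested, 5 of them higher and 1 lower, where 33.5% and 21.1% of all genes tested were so called. Ttr encodes the carrier of thyroxine, and it rose from 30.18 and 30.05 FPKM to 58.79 and 59.16 FPKM (0.95 on the log2 scale, SE 0.03, limma adjusted p = 1.68e-06). Rxra (0.42), a retinoid X receptor that pairs with thyroid hormone receptors, and Hr (0.45), a corepressor gene, were also higher. Klf9, a thyroid hormone response gene and the single lower member, had a log2 fold change of −0.31, and was named after its value was seen. The receptor genes Thra (0.01, limma adjusted p = 0.850) and Thrb (−0.15, limma adjusted p = 0.0724) did not pass the test, although Thra was called higher with TPM and Thrb lower under both rescalings of FPKM. The counts moved with scaling, to 9 higher and 0 lower of 14 with TPM, where 47.8% of all genes were higher. With either rescaling of FPKM they were 3 higher and 2 lower. There 25.4% of all genes were higher and 31.2% lower (library total without crystallin and erythroid genes), or 28.3% and 26.5% (median-of-ratios). With wild-type replicate 2, knockout replicate 1 or knockout replicate 2 left out, 3 genes were higher, and Klf9 was called in the fit without knockout replicate 1 but not with any other library left out.

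The lysine breakdown and imine reduction list, which stands for the ketimine reductase side of Crym, went both ways. Of 7 tested members 2 were higher and 2 lower, where 33.5% and 21.1% of all genes tested were so called. Their median was −0.02 against 0.04 for all genes. Pipox, the peroxisomal pipecolate oxidase gene, fell from 7.40 to 5.31 FPKM in the mean (log2 fold change −0.41), while Pycr1 (0.44) and Pycrl (0.29), which encode pyrroline-5-carboxylate reductases of proline synthesis, rose. With either rescaling of FPKM 3 members were lower, where 31.2% (library total without crystallin and erythroid genes) and 26.5% (median-of-ratios) of all genes were. With TPM 3 were higher and 1 lower, where 47.8% and 11.4% of all genes were. Without either knockout library 1 was lower.

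Cryz (Entrez 12972, protein coding, plus strand of chromosome 3 from 154596711 to 154623182) was slightly lower in the knockout. Its level was 16.48 and 15.45 FPKM in wild-type replicates 1 and 2, against 13.67 and 14.35 FPKM in knockout replicates 1 and 2. The groups did not overlap, but the gap between them was about as wide as the spread within each. The means were 16.0 ± 0.73 and 14.01 ± 0.48 FPKM (SD, n = 2), so that the knockout stood at 87.8% of the wild type, with a log2 fold change of −0.18 (SE 0.05, limma adjusted p = 0.0202). The call did not hold under several alternatives. It was lost with TPM (−0.065, limma adjusted p = 0.327). It was also lost when wild-type replicate 1 (adjusted p = 0.111), knockout replicate 1 (adjusted p = 0.130) or knockout replicate 2 (adjusted p = 0.0571) was left out. Over all alternatives its limma adjusted p ran from 0.00444 to 0.327.

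Cryz lies head to head with Tyw3, a gene of transfer RNA modification on the minus strand, and the exons of Tyw3 cover 4.07% of the annotated exon bases of Cryz. Wild-type libraries had 3.88 and 3.99 FPKM of Tyw3, and knockout libraries 3.10 and 2.94 FPKM. Its log2 fold change of −0.30 (SE 0.07, limma adjusted p = 0.00971) had the same sign as that of Cryz, and the call was lost when wild-type replicate 2 (adjusted p = 0.0513) or knockout replicate 2 (adjusted p = 0.0587) was left out. Without strand, reads from the shared bases cannot be assigned to either gene. The genes most like Cryz in pattern among 6161 of similar level were Aarsd1, Ogfrl1 and Trim41, with summed differences of 0.01, 0.02 and 0.04.

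Cryzl1 (Entrez 66609, protein coding, minus strand of chromosome 16 from 91689322 to 91728975) did not pass the test. Wild-type replicates 1 and 2 gave 21.15 and 21.76 FPKM, and knockout replicates 1 and 2 gave 23.03 and 21.14 FPKM. The groups overlapped, with knockout replicate 2 the lowest and knockout replicate 1 the highest library. Limma gave 0.04 on the log2 scale (SE 0.05, adjusted p = 0.529). With TPM, where the median of all genes was 0.16 rather than 0.04, it was called higher (0.16, adjusted p = 0.0337), and its sign turned under both rescalings of FPKM and without knockout replicate 1. Relative to the median of all genes the fold change of Cryzl1 was 0.00042 with FPKM and 0.00085 with TPM, and that of Cryz was −0.21 and −0.22. Transcripts of Cryzl1 share 8.81% of their 50-base words with transcripts of 596 other genes, and those of Gm10785, an antisense gene, overlap its exons. Its neighbours on the chromosome were Donson, a replication gene (14.89 and 15.07, then 14.16 and 13.55 FPKM, limma adjusted p = 0.0762), and Itsn1, an endocytosis scaffold gene that starts 104 bases beyond Cryzl1 on the other strand in RefSeq (26.23 and 26.67, then 29.09 and 27.20 FPKM, adjusted p = 0.125). Neither passed the test with FPKM, but Donson was called lower under both rescalings and Itsn1 higher with TPM.

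The list of other medium-chain reductases, the wider family of Cryz and Cryzl1, also held quinone reductases outside that family. Its members moved in both directions. Of 13 tested members 6 were higher and 2 lower, with a median of 0.13 against 0.04 for all genes, of which 33.5% were higher and 21.1% lower. Adh1, an alcohol dehydrogenase gene active on retinol, had the lowest p and rose from a mean of 13.6 to 27.0 FPKM (log2 fold change 0.94, SE 0.04, limma adjusted p = 4.84e-06). Vat1l (−0.52) and Mecr, the mitochondrial enoyl reductase of fatty acid synthesis (−0.49), were lower. With either rescaling of FPKM 6 were higher and 5 lower. Over all genes 25.4% were higher and 31.2% lower with the library total without crystallin and erythroid genes, and 28.3% and 26.5% with median-of-ratios scaling. With TPM, where 47.8% of all genes were higher and 11.4% lower, 8 were higher and 2 lower.

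Cryl1 (Entrez 68631, protein coding, minus strand of chromosome 14 from 57274993 to 57398529) encodes L-gulonate dehydrogenase of the glucuronate pathway, and it was the only gene of the set called higher with FPKM, joined by Cryzl1 with TPM. Its level was 5.70 and 4.66 FPKM in wild-type replicates 1 and 2, against 6.62 and 6.88 FPKM in knockout replicates 1 and 2. The knockout libraries agreed closely and both lay above the wild type, whose replicates differed by more than the gap between the groups. The means were 5.18 ± 0.74 and 6.75 ± 0.18 FPKM (SD, n = 2), a 1.30-fold rise, with a log2 fold change of 0.33 (SE 0.09, limma adjusted p = 0.0155). The call was lost when low values were not filtered (adjusted p = 0.0595). It was also lost when wild-type replicate 2 (0.21, adjusted p = 0.0607), knockout replicate 1 (adjusted p = 0.0826) or knockout replicate 2 (adjusted p = 0.114) was left out. About 155.3 and 122.8 fragments lie behind the wild-type values and about 180.4 and 184.8 behind the knockout values. Periocular mesenchyme markers, 10 of 10 higher, rose from between 1535 and 1563 FPKM to between 3402 and 3425 FPKM in the same libraries. None of them was at 0 in every library. Markers of skeletal muscle (12 of 12 higher), macrophages (7 of 7), surface epithelium (7 of 8), erythroid cells (6 of 7 tested) and endothelium (5 of 6) rose as well. Surface epithelium and endothelium each had 1 lower. Over all genes tested 33.5% were higher. The part of any of these lists in the rise of Cryl1 was not tested. The genes nearest to Cryl1 in pattern among 4474 of similar level were Tmem120b, Gm46156 and Eya1, each with a summed difference between 0.08 and 0.09.

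Other enzymes of the glucuronate, xylulose and polyol routes included 3 of 8 tested members that were higher and 1 that was lower, with a median of 0.09 against 0.04 for all genes. Over all genes tested 33.5% were higher and 21.1% lower. Ugdh, which makes UDP-glucuronate, had means of 26.2 and 37.2 FPKM (log2 fold change 0.49, limma adjusted p = 6.17e-05), and Khk, the fructokinase gene, of 5.75 and 9.52 FPKM (0.64, adjusted p = 0.000123). Akr1a1, which reduces glucuronate to the gulonate that Cryl1 oxidises, had a log2 fold change of 0.12 (adjusted p = 0.0111), a call lost under both rescalings of FPKM and when knockout replicate 1 (adjusted p = 0.107) or knockout replicate 2 (adjusted p = 0.0583) was left out. With TPM, where 47.8% of all genes were higher, 6 were higher and 0 lower, with either rescaling of FPKM 2 were higher and 1 lower, and with either knockout library left out 2 were higher and 0 lower. Over all genes 25.4% were higher and 31.2% lower with the library total without crystallin and erythroid genes. With median-of-ratios scaling 28.3% and 26.5% were. On the hydroxyacyl-CoA dehydrogenase list 4 of 6 genes were higher and 0 lower. That list was not limited to the sequence family of Cryl1. Those higher were Hadhb (0.33), Hadha (0.19) and Hsd17b10 (0.18), all of mitochondrial fatty acid or branched-chain oxidation. Hadh (0.13), named after its value was seen, was the other. When the library total left out crystallin and erythroid genes, and when wild-type replicate 2 was left out, 2 of the 6 were higher. Hsd17b10 lost its call in both of these and with knockout replicate 2 left out. The call for Hadh was lost under both rescalings of FPKM (limma adjusted p = 0.345 and 0.101) and with wild-type replicate 1 (0.0905), wild-type replicate 2 (0.0834) or knockout replicate 1 (0.145) left out.

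Enzymes that serve as crystallins in the lens or cornea of some animals gave no common direction. Of 10 such genes 4 were higher and 3 lower, where 33.5% and 21.1% of all genes tested were so called. Their median was 0.10 against 0.04 for all genes. With TPM, where 47.8% of all genes were higher and 11.4% lower, 7 were higher and 2 lower. Aldh1a1, a retinaldehyde dehydrogenase that is eta-crystallin in elephant shrews, fell from 116.26 and 118.56 FPKM to 33.05 and 33.47 FPKM, a log2 fold change of −1.79 (SE 0.03, limma adjusted p = 6.77e-08). On this scale its change was larger than that of any gene among the 5, while in the ratio of means Lgsn fell more. Tkt, transketolase and a corneal crystallin, fell less (−0.23), and Ldha, lactate dehydrogenase A, rose from 466.60 and 470.37 FPKM to 630.39 and 635.58 FPKM (0.43). Gapdh (−0.03, adjusted p = 0.535) and Asl, the relative of delta-crystallin in birds (0.13, adjusted p = 0.0969), did not pass the test. Gapdh was called higher with TPM and lower when the library total left out crystallin and erythroid genes, and Asl higher with TPM.

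**Figure D3:**
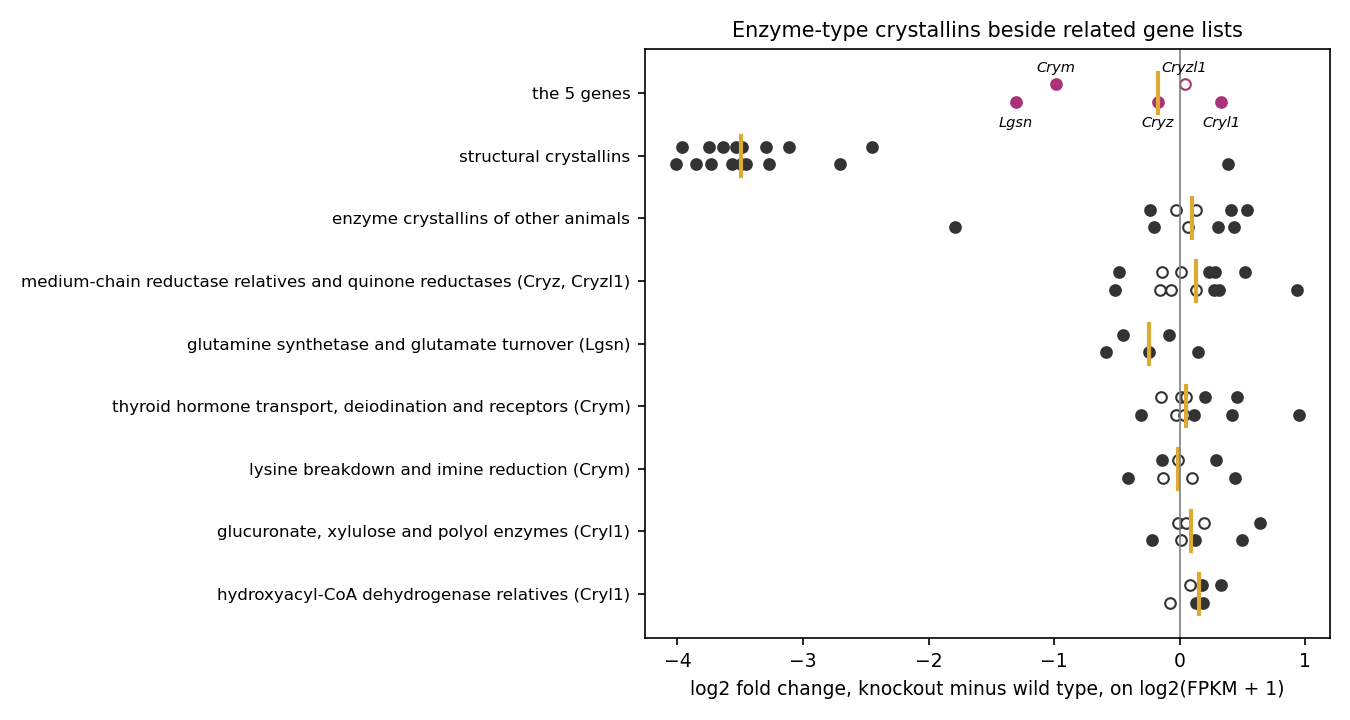
Log2 fold change, knockout minus wild type on log2(FPKM + 1), of the 5 genes and of the tested members of 8 related lists. Each point is a gene, filled where the limma adjusted p was under 0.05, and the yellow bar is the median of the list. Lgsn (−1.31) and Crym (−0.99) lie below the enzyme lists apart from Aldh1a1 (−1.79), and above 16 of the 17 structural crystallins.

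The remaining neighbours on the chromosomes were mostly at low levels. Anks4b and Abca14, on either side of Crym, were at 0.13 FPKM or less in every library. Gjb6, a connexin gene beside Cryl1, was between 0.71 and 0.83 FPKM, and Ift88, a cilium gene on its other side, was at 10.17 and 9.73 FPKM in the wild type and 9.44 and 8.96 FPKM in the knockout (limma adjusted p = 0.137). Khdrbs2, an RNA-binding protein gene, starts 967877 bases beyond the end of Lgsn and had a log2 fold change of −0.16 (adjusted p = 0.0912). Ift88 and Khdrbs2 were called lower under both rescalings of FPKM. Erich3, beside Cryz, was at 0.66 FPKM or less.

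**Figure D4:**
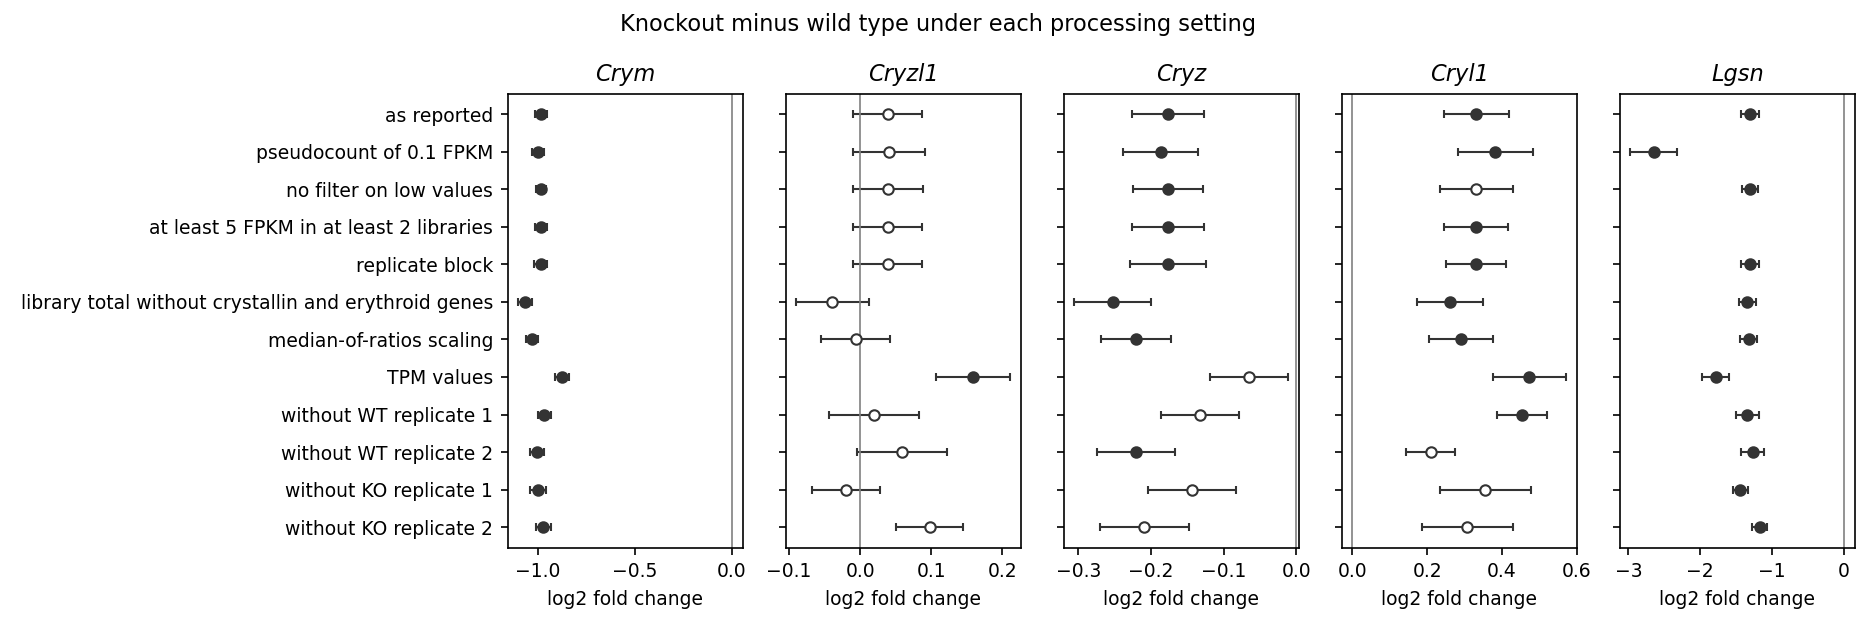
Log2 fold change (knockout minus wild type, error bars SE) of each gene under the reported processing and 11 alternatives, with filled points where the limma adjusted p was under 0.05. Horizontal axes differ between panels. Crym and Lgsn keep a filled point below 0 under every setting that gives a value, Lgsn having none with a minimum of 5 FPKM in 2 libraries, while Cryz and Cryl1 each lose the call in 4 settings.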

How the data were processed

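Illumina libraries were made from Trizol-extracted total RNA, per the labels' protocols. Each library has its own table, in which the authors give FPKM values per gene, and the same tables hold TPM values, which the authors' files give as FPKM rescaled to a fixed sum, per the file headers. HISAT2, TopHat, Cufflinks, DESeq and the builds GRCm38 and GRCh38 are named without roles, per the submitters' processing notes. The sources used here do not give annotation, filters or strand. FPKM divides by all fragments, so a fall of abundant crystallin transcripts raises all other values.

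Of the symbols 26 shown as dates were restored by Entrez number, and 99.7% of the numbers matched RefSeq (GRCm38.p6). Gene positions are from GENCODE M21 (GRCm38). Depth was estimated from the spacing of 265 to 289 low FPKM values per library, of which 54.0% to 64.7% lay within 0.15 of a whole number of fragments (30% by chance), too few to recover counts. Chi-square per gene between replicates was 1.91 (wild type) and 1.86 (knockout), more than counting noise alone gives. It used fragment numbers rebuilt from FPKM and the estimated depth. The excess may thus be technical or come from the rebuilding, and it does not show separate embryos. The libraries were treated as replicates by their titles.

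The test was limma-trend (limma 3.58.1 under R 4.3.3) of log2(FPKM + 1) on genotype alone, two-sided, over genes whose mean reached 1 FPKM, with Benjamini-Hochberg adjustment over all of them. The code was tested on simulated data. Alternatives were a pseudocount of 0.1, no filter, at least 5 FPKM in at least 2 libraries, a replicate block, scaling without crystallin and erythroid genes, median-of-ratios scaling, TPM, and omission of each library. The genes and lists were chosen with earlier results of these data known. Named genes are the 5 genes, Anp32b, up to 3 called members per list by lowest p, members not called, the nearest listed gene on each side, and the 3 most similar patterns. Some genes this rule selects are not named. Python 3.11.15 with pandas 2.3.3 drew the rest.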

Additional observations from a re-analysis of the deposited data

How the results depend on the processing

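The fall of Crym kept its direction and call under all 11 alternatives and that of Lgsn under the 10 that tested it, with log2 fold changes of −1.07 to −0.88 and of −2.64 to −1.17. With at least 5 FPKM in 2 libraries Lgsn was not tested. Cryz was not called with TPM (−0.065) and ranged from −0.22 to −0.13 with a library left out. Cryl1 was not called without a filter (0.33, adjusted p = 0.0595) and ranged from 0.21 to 0.45 with a library left out. Cryzl1 was called higher with TPM (0.16), turned to −0.039 when the library total left out crystallin and erythroid genes and to −0.0065 with median-of-ratios scaling, and ranged from −0.020 to 0.10 with a library left out. Other signs that turned were those of Thra (−0.073 and −0.040 under these scalings, −0.018 to 0.033 with a library left out) and, with TPM, Gapdh (0.10), Donson (0.0078) and Ift88 (0.0080). Except for scaling and fewer samples, the cause was not tested. With the replicate number as a block 7828 genes were called and no call among the 5 genes changed. The numbers are not labelled as pairs, and the deviations of same-numbered libraries correlated at 0.04. Over the alternatives 5415 to 8903 genes were called. Depth limits Lgsn most, with about 5.6 fragments in knockout replicate 2.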

Other observations

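Crybg3, a gene with beta-gamma crystallin domains that is not a bulk lens protein, was the single member of the structural list that rose. It was at 3.38 and 3.46 FPKM in the wild type and at 4.87 and 4.70 FPKM in the knockout, a log2 fold change of 0.39 (limma adjusted p = 0.00212). Gulo, which makes the vitamin C precursor from gulonolactone, was at 8.28 FPKM in the mean of the wild type and at 6.96 FPKM in the knockout (−0.22, limma adjusted p = 0.0178), and was named after its value was seen. The call for Gulo was lost with TPM (adjusted p = 0.161) and when wild-type replicate 1 (0.0903), knockout replicate 1 (0.0865) or knockout replicate 2 (0.0929) was left out.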
